A study of Mus musculus with 12 samples.

Results

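The genes described here encode the small nucleolar, Cajal body and spliceosomal RNAs that were detected in a mouse B cell lymphoma line. They are the 33 genes of GENCODE M21 type snoRNA, scaRNA or snRNA with 10 or more reads in at least 2 of 12 libraries, out of 2941 annotated genes of these types and 51826 genes in all. Of the 2941 genes, 290 had any read. The 33 genes comprise 7 H/ACA genes with a Snora symbol, 6 C/D genes with a Snord symbol, 6 Cajal body genes, 12 snoRNA genes that carry only a clone symbol, and 2 spliceosomal RNA genes. They were chosen by these read counts, so their being detected is not a result.

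Reads from the 3′ ends of RNA were counted per gene in 6 groups of 2 libraries each: mitotic S38A, mitotic S38D, mitotic WT, asynchronous S38A, asynchronous S38D and asynchronous WT. The names give the form of RPL12 (uL11), a protein of the large ribosomal subunit, in which S38A and S38D replace a serine by alanine or by aspartate. All groups are 19DN, a reporter-negative subline of the lymphoma 19PP, which arose in a Rag2-/-γC-/- host given bone marrow with Cγ1-Cre and Cre-activated Myc and P110*. Mitotic cells had 100 ng/mL nocodazole, which takes microtubules apart, for 8 h and a release of 10 min, and cells were harvested with cycloheximide, an inhibitor of translation elongation, at 100 µg/mL. How the substitutions were made, and whether each line is a clone, is not given in the sources used here. Nothing states that the 2 libraries of a group came from separate cultures, so p-values measure the spread between these libraries, which may be technical.

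H/ACA RNAs carry a complex of Dkc1, Nhp2, Nop10 and Gar1 to sites where uridine is turned into pseudouridine, and C/D RNAs carry Fbl, Nop56, Nop58 and Snu13 to sites of ribose methylation. Most targets lie in ribosomal RNA, which is made in the nucleolus. Cajal body RNAs of either kind guide the same reactions on the spliceosomal RNAs. In mammals most of these guides are cut from introns of host genes, and the mature RNAs have no poly(A) tail, although short A tails are added and trimmed while their 3′ ends mature or decay. The libraries were primed with oligo(dT), so reads come from molecules that offered an A stretch, and the values below are levels of such molecules and not of the whole mature pool. RNA came from detergent lysates cleared by centrifugation, and the pellets were not analysed here. In mitosis of mammalian cells the nuclear envelope and the nucleolus come apart.

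The sequences that the results turn on are given 5′ to 3′ from the GENCODE M21 transcripts, with positions on GRCm38 (mm10). Capitals mark ACA in the last 12 bases of H/ACA-type RNAs. In C/D-type RNAs they mark TGATGA (C box) in the first 30 bases and CTGA (D box) in the last 25. The first 5 are H/ACA-type RNAs. Snora30 and Snora47 had among the largest mitotic differences, Gm25394 had no read in asynchronous S38D cells, Snora73b had the most reads of the H/ACA genes, and Gm22748 is shown for its likeness to Gm23300.
Snora30 (chr7:127527874-127528003, plus strand): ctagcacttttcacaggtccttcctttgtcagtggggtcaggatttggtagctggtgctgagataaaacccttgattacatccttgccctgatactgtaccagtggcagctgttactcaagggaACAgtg
Snora47 (chr13:95330600-95330737, plus strand): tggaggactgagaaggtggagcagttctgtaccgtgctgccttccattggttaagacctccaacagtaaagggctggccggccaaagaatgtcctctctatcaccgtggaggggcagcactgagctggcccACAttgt
Gm25394 (chr13:49684301-49684433, plus strand): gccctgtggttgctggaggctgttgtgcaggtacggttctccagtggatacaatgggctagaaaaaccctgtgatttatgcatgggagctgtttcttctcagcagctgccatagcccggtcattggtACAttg
Snora73b (chr4:132352322-132352526, minus strand): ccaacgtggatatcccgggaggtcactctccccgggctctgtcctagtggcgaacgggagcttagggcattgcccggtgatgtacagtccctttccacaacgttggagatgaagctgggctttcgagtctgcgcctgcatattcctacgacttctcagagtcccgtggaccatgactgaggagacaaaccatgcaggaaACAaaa
Gm22748 (chr12:17546146-17546281, plus strand): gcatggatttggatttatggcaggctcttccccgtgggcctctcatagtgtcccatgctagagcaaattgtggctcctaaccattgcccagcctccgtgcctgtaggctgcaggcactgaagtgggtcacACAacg
Gm23300 is the near copy of Gm22748 whose difference between the states missed the threshold.
Gm23300 (chr19:38071929-38072053, plus strand): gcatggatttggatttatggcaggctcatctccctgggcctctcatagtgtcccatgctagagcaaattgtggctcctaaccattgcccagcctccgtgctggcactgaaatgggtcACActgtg
Snord104 is a C/D RNA with a small mitotic difference and among the most reads of its class.
Snord104 (chr11:106500993-106501062, plus strand): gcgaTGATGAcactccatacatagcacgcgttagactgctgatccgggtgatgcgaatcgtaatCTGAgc
The last 3 are Gm22767 and Scarna9, Cajal body RNAs with large mitotic differences, and Rnu1a1, the U1 RNA gene, for which no box was marked.
Gm22767 (chr4:132838383-132838547, minus strand): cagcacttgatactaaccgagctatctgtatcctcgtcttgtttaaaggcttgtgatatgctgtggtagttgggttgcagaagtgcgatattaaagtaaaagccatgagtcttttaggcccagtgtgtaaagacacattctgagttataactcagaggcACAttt
Scarna9 (chr9:15326264-15326333, minus strand): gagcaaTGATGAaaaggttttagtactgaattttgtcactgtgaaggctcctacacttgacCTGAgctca
Rnu1a1 (chr11:87422867-87423030, plus strand): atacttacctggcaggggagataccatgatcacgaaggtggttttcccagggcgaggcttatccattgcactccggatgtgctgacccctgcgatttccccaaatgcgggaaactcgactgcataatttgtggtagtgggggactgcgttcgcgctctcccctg

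All 7 Snora genes had ACA in the last 12 bases and all 6 Snord genes had both boxes, searched on the transcript strand. Of the 12 clone-symbol snoRNA genes, 11 had the ACA end, and Gm22980 had both C/D boxes. Among all 1507 annotated snoRNA genes, 48.4% had the ACA end and 20.9% both boxes in the same windows. The longest A run within the 33 transcripts had a median of 4 bases, and 2 genes had a run of 6 or more: Snord49b with 8 and Gm25636 with 6. Rnu1a1 shared all of its 51-base windows, the length of a read, with transcripts of 28 other genes, and Gm23849 shared all of its own with 16, Rnu2-10 among them. Counts of these 2 genes are therefore uncertain. The other 31 genes shared from 0 to 20 windows, and Scarna17 had the largest share of them, 69.0%.

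Gene reads ranged from 3432875 to 6587997 per library. All 8 B cell markers were detected, with summed CPM (reads of a gene scaled to the size of its library) of 1547 to 2323 in mitotic and 2580 to 3620 in asynchronous libraries. Of 8 T and NK cell markers 6 were at 0 in every library, of 8 myeloid markers 4, and of 8 stromal, epithelial and erythroid markers 3, and no library had more than 7.42 summed CPM of any of these lists. Spike-in RNA held 2.29% to 3.60% as many reads as the genes. Replicates stood farthest apart in asynchronous S38D and in mitotic WT, on an axis with 69.1% of the variance within groups. In these bulk samples, fewer cells of a type and less RNA per cell cannot be told apart.

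The 33 genes held 0.0222% to 0.0631% of gene reads in the 6 mitotic libraries and 0.00764% to 0.0158% in the 6 asynchronous libraries. The groups did not overlap. The 2908 genes of the same types that did not meet the rule held 0.00318% to 0.00666% in mitotic and 0.00165% to 0.00253% in asynchronous libraries, also without overlap. Only 14 of the 33 genes had 10 or more reads in at least 2 asynchronous libraries, 2 genes had them in 1, and 17 in none. These 17 met the rule through mitotic libraries alone, which favours a rise in mitotic cells. The 2 genes with 1 such asynchronous library, Gm22748 and Scarna2, also needed mitotic libraries to meet it. Just inside the rule, Gm23849 and Snord83b had 11 reads in their second-highest library. Just outside it, with 9, were Gm22009, Gm23346, Gm26397, Rnu11, Snora23, Snora62 and Snord65.

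In mitotic against asynchronous cells, averaged over the 3 lines, 29 of the 33 genes rose and 0 fell at an adjusted p under 0.05. Of all 10477 genes tested, 42.1% were called, 20.5% higher and 21.6% lower. Calls here and below are those of edgeR's quasi-likelihood test, adjusted over all genes tested. Counting unadjusted p under 0.05, 30 were higher and 0 lower, and DESeq2 called 25 higher and 0 lower. All 33 passed the filter on low counts. Since 17 of them met the 10-read rule through mitotic libraries alone, the count of 29 is given as a description. Among the 14 genes with 10 or more reads in at least 2 asynchronous libraries, 10 rose and 0 fell. Their median log2 fold change was 1.32, against -0.02 for all genes tested. In 16 of the 33 genes all 6 mitotic libraries were above all 6 asynchronous libraries, an arrangement that 5.79% of all tested genes had, and 4.84% the opposite one. In 24 genes the mitotic libraries were above the asynchronous ones within each of the 3 lines, as in 12.9% of all tested genes, and 12.6% had the opposite arrangement. Both counts hold genes that met the rule through mitotic libraries alone, and they too are a description. Of the 14 genes with asynchronous reads, Snord49b, Scarna9, Snora73b, Gm24616 and Gm23639 had all 6 mitotic libraries above all 6 asynchronous libraries, and the others overlapped. The 4 genes without a call were Snord89, Rnu1a1, Gm22661 and Gm23300. With scaling to the spike-in total the median of all genes moved by -0.18, and the calls of Snord13, Snord104, Scarna2 and Gm25517 were lost (adjusted p 0.125, 0.296, 0.0558 and 0.0756).

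**Figure D1:**
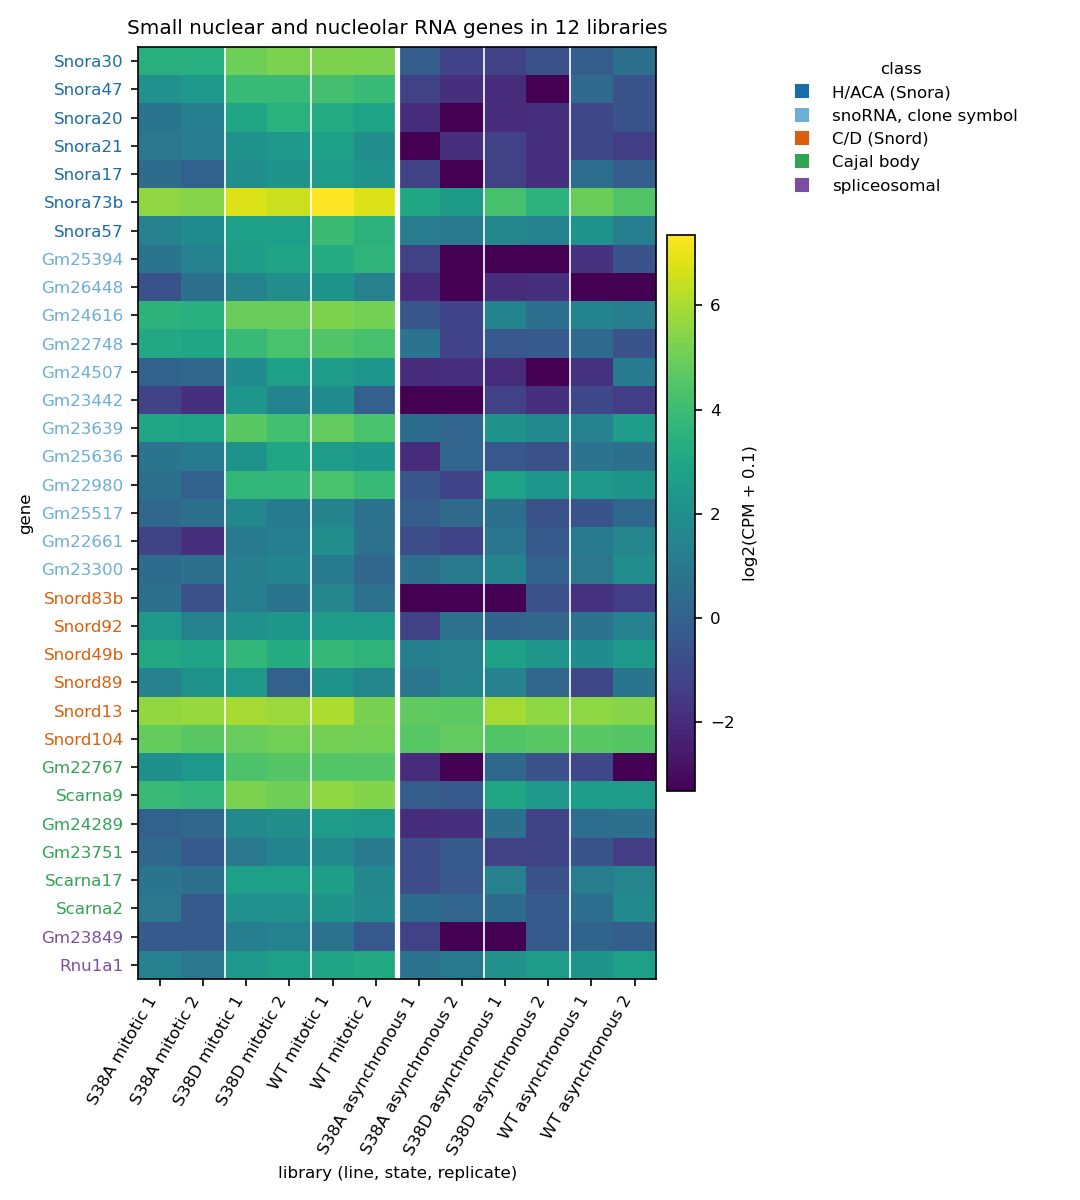
Levels of the 33 genes in each library as log2(CPM + 0.1), with mitotic libraries left of the thick line and asynchronous libraries right of it, and gene names coloured by class. Snora73b, Snord13 and Snord104 had the most reads, and the S38A columns are darker (lower) than the WT columns of the same state for most H/ACA and Cajal body genes.

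All 7 H/ACA genes rose in mitotic cells. Snora30, Snora47, Snora20, Snora21 and Snora17 had 10 or more reads in no asynchronous library, so their rises are a description. Snora73b, the U17 RNA that takes part in early cleavage of the ribosomal RNA precursor, had 42.5, 99.9 and 164 CPM as lowest, median and highest mitotic values, against 5.52, 15.3 and 30.7 CPM in asynchronous libraries. Its log2 fold change of mitotic over asynchronous cells was 2.60 (SE 0.17, adjusted p = 1.36e-06), and the sizes of rises below are on the same scale. The ranges were apart, and the lowest mitotic library was an S38A one. Snora47 ranged from 4.16 to 18.1 CPM with a median of 14.7 in mitotic libraries, against 0 to 1.17 CPM with a median of 0.244 in asynchronous libraries, and rose by 5.12 (SE 0.28, adjusted p = 1.47e-09). Snora20 had 205 mitotic reads against 7 asynchronous reads, and rose by 4.67 (SE 0.36). Snora21 had 126 mitotic reads against 7 asynchronous reads, and rose by 4.09 (SE 0.40). For both genes every mitotic library was above every asynchronous one, as it was for Snora30 at 10.1 to 39.5 CPM in mitotic against 0.318 to 1.42 CPM in asynchronous libraries. Snora17 rose by 2.87 (SE 0.39) and Snora57 by 1.26 (SE 0.20), the smallest rise of the class, with overlapping ranges of 2.53 to 15.5 CPM in mitotic libraries, against 1.90 to 4.30 CPM in asynchronous libraries. Snora73b, Snora57 and Gm25636 lie opposite a gene on the other strand, and the strand setting of the counting is not given in the sources used here.

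Of the 12 clone-symbol snoRNA genes 10 rose in mitotic cells. For Gm25394, Gm24507, Gm25636, Gm25517, Gm26448 and Gm23442, with 10 or more reads in no asynchronous library, the rise is a description. Gm25394, in an intron of the isoleucyl-tRNA synthetase gene Iars, had 1.63, 6.70 and 12.3 CPM as lowest, median and highest mitotic values, against 0, 0.0978 and 0.567 CPM in asynchronous libraries, and rose (adjusted p = 1.89e-07). Gm24616 lies in Eif4a2, a translation initiation helicase gene, and overlaps an annotated exon of it. It had 10.8, 29.9 and 39.3 CPM in mitotic libraries, against 0.345, 1.84 and 2.74 CPM in asynchronous libraries, and rose by 4.04 (SE 0.17). Gm24507, Gm23639, Gm25636 and Gm22980 rose by 1.38 to 3.49. Gm26448 had 80 mitotic against 3 asynchronous reads and rose (adjusted p = 2.07e-05), and Gm23442 had 64 against 6 and rose (adjusted p = 0.00413). No fold is given for Gm25394, Gm26448 and Gm23442 over the mean of the lines, since each had no read in 1 of the 6 groups. Gm25517 rose by 1.00 (SE 0.35, adjusted p = 0.031), a call that DESeq2 did not make (adjusted p = 0.214).

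Gm22748 and Gm23300 are 86.8% identical, with 118 identical bases in 136 aligned columns, and lie in introns of different genes, Odc1 and Cep55. Gm22748 had 7.62, 16.8 and 22.1 CPM as lowest, median and highest mitotic values, against 0.345, 0.672 and 1.58 CPM in asynchronous libraries, and rose by 4.02 (SE 0.24, adjusted p = 4.18e-09). Gm23300 had 1.10, 1.75 and 2.72 CPM in mitotic libraries, against 0.884, 1.83 and 3.68 CPM in asynchronous libraries, a log2 difference of -0.17 (SE 0.33, adjusted p = 0.70). Gm22748 needed mitotic libraries to meet the rule, so its rise and the contrast with Gm23300 are a description. The mitotic ranges of the 2 genes were apart and their asynchronous ranges overlapped. They share 16 of their 51-base windows, so some reads of one could be placed in the other. Gm22661, with 0.177 to 3.78 CPM in mitotic libraries, against 0.345 to 2.83 CPM in asynchronous libraries, had a difference of 0.15 (SE 0.49, adjusted p = 0.828). It lies in the same host, Zbed3, as Snora47, which rose by 5.12. Of the 2 other pairs of members with similar sequence, Snora73b and Gm26448 are 87.8% identical, Gm23639 and Gm25636 are 91.0% identical, and neither pair shares a 51-base window.

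Of the 6 C/D genes 5 rose in mitotic cells. For Snord92 and Snord83b, with 10 or more reads in no asynchronous library, the rise is a description. Snord13, the U13 RNA that guides acetylation of the small-subunit ribosomal RNA in human cells, had 36.9, 53.0 and 65.9 CPM as lowest, median and highest mitotic values, against 25.5, 44.2 and 62.1 CPM in asynchronous libraries. The ranges overlapped, and the rise of 0.42 (SE 0.13, adjusted p = 0.0218) missed the threshold when 1 of 4 libraries was left out (WT asynchronous 2, S38A asynchronous 2, WT mitotic 1 or S38D mitotic 1, with adjusted p from 0.0504 to 0.0619). Snord104 had 24.5, 31.5 and 34.9 CPM in mitotic libraries, against 22.0, 24.1 and 27.6 CPM in asynchronous libraries, and rose by 0.34 (SE 0.09, adjusted p = 0.00814), which was not called by DESeq2 (adjusted p = 0.0634). These 2 genes are also the C/D members for which GENCODE gives no same-strand host. Snord49b, in 2410006H16Rik, had 7.09 to 13.8 CPM in mitotic libraries, against 2.36 to 6.53 CPM in asynchronous libraries, without overlap, and rose by 1.43 (SE 0.17). Snord92 rose by 1.90 (SE 0.30), with 2.48 to 5.86 CPM in mitotic libraries, against 0.315 to 2.55 CPM in asynchronous libraries. Snord83b, in an intron of the ribosomal protein gene Rpl3, had 53 mitotic reads against 5 asynchronous reads, none of them in S38A, and rose (adjusted p = 0.000346). Snord89 had 0.906 to 5.15 CPM in mitotic libraries, against 0.391 to 2.59 CPM in asynchronous libraries, a difference of 1.10 (SE 0.45, adjusted p = 0.0705). Gm22980, a clone-symbol gene with both C/D boxes, rose by 1.38 (SE 0.24).

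All 6 Cajal body genes rose. For Gm22767, Gm24289 and Gm23751, with 10 or more reads in no asynchronous library, the rise is a description. The same holds for Scarna2, which had 10 or more reads in 1 asynchronous library and needed mitotic libraries to meet the rule. Gm22767, an RNA with an ACA end in an intron of Ppp1r8, had 3.98, 21.5 and 23.4 CPM as lowest, median and highest mitotic values, against 0, 0.274 and 1.11 CPM in asynchronous libraries. It rose by 5.53 (SE 0.29, adjusted p = 1.04e-09), the largest fitted difference among the 29 genes with reads in every group. The 2 low mitotic values were those of S38A, 3.98 and 5.14 CPM, and the other 4 were at least 20.6 CPM. Scarna9, which has both C/D boxes and guides modification of the U2 RNA in human cells, had 13.1, 35.6 and 47.2 CPM in mitotic libraries, against 0.690, 5.63 and 7.64 CPM in asynchronous libraries, and rose by 3.16 (SE 0.14). Gm24289 rose by 2.10 (SE 0.36), Gm23751 by 1.94 (SE 0.39) and Scarna17 by 1.45 (SE 0.33). Scarna2 rose by 0.98 (SE 0.31), with overlapping ranges of 0.709 to 4.53 CPM in mitotic libraries, against 0.707 to 3.40 CPM in asynchronous libraries, and its call was lost with DESeq2 (adjusted p = 0.131) and when WT asynchronous 1, WT mitotic 1 or S38A mitotic 1 was left out.

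Both spliceosomal genes had low counts. Rnu1a1 encodes U1, which pairs with the 5′ splice site, and had 1.77, 5.75 and 8.78 CPM as lowest, median and highest mitotic values, against 1.58, 4.32 and 6.52 CPM in asynchronous libraries, a difference of 0.37 (SE 0.21, adjusted p = 0.166). Gm23849 had 44 mitotic against 14 asynchronous reads and rose by 1.66 (SE 0.54, adjusted p = 0.0212), which was not called by DESeq2 (adjusted p = 0.109). It had 10 or more reads in no asynchronous library, so its rise is a description.

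Levels summed over the genes of a class are given as a description, with no test. H/ACA genes summed to 68.5 ± 2.09 CPM in mitotic and 10.0 ± 2.74 CPM in asynchronous S38A cells, to 174.9 ± 6.71 and 19.1 ± 5.57 CPM in mitotic and asynchronous S38D cells, and to 225.2 ± 47.8 and 33.4 ± 8.01 CPM in mitotic and asynchronous WT cells (SD, n = 2 each). The ratio of the means was 6.82 in S38A, 9.14 in S38D and 6.73 in WT. Cajal body genes gave ratios of 6.99, 6.74 and 6.43 in S38A, S38D and WT, and clone-symbol snoRNA genes 5.19, 6.42 and 6.06. C/D genes gave 1.62, 1.28 and 1.45, and spliceosomal genes 1.51, 1.53 and 1.43. Snora73b supplied most of the H/ACA sum, and Snord13 and Snord104 most of the C/D sum. Over the 30 genes without these 3, the ratio was 4.86 in S38A, 6.28 in S38D and 5.99 in WT. These sums hold the genes that met the rule through mitotic libraries alone.

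**Figure D2:**
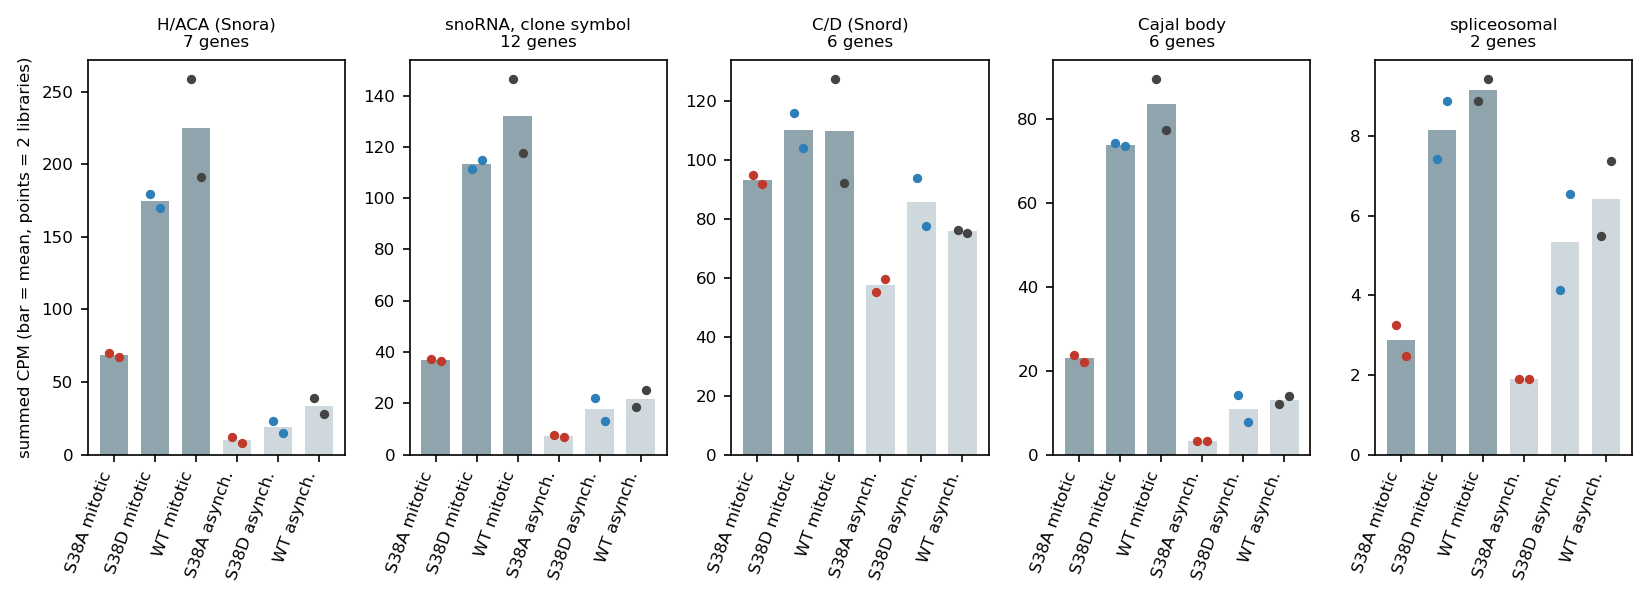
Summed CPM of the genes of each class, with bars for the mean of 2 libraries, red, blue and grey points for the S38A, S38D and WT libraries, dark bars for mitotic and light bars for asynchronous groups, and a separate axis from 0 for each class. The S38A bars are lowest in each state for every class, and the mean mitotic sum is 1.28 to 1.62 times the asynchronous one for C/D genes and 6.73 to 9.14 times for H/ACA genes.

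Within the lines, 15 of 33 genes rose in mitotic S38A cells, 27 in mitotic S38D cells and 24 in mitotic WT cells, each against the asynchronous cells of the line, and 0 fell. Of all genes tested, 6.72% rose and 8.06% fell in S38A, 11.6% rose and 14.8% fell in S38D, and 13.4% rose and 12.7% fell in WT. Counting unadjusted p under 0.05, 20, 28 and 24 genes were higher and 0 lower in S38A, S38D and WT. DESeq2 called 10, 14 and 14 higher and 0 lower. The median log2 fold changes were 2.01, 2.70 and 2.14 with genes at 0 in a group set to their bound, and 1 gene without a value in S38A left out, against 0.01, -0.01 and -0.02 for all genes. Of the 33 genes, 14 rose in all 3 lines, as 3.74% of all tested genes did, and 3.87% fell in all 3. Since 17 of the 33 met the rule through mitotic libraries alone, these counts and medians are a description. There were 14 genes with 10 or more reads in at least 2 asynchronous libraries. Of these, 6, 9 and 8 rose in S38A, S38D and WT and 0 fell, with medians of 1.08, 1.08 and 1.69. In 3 genes the asynchronous group of a line had no read, and the bound is computed from 3 reads over the group. Gm25394 had 70 reads in mitotic and 0 in asynchronous S38D cells, at least 26.8-fold higher. Gm26448 had 35 reads in mitotic and 0 in asynchronous WT cells, at least 10.2-fold higher. Snord83b had 11 reads in mitotic and 0 in asynchronous S38A cells, at least 4.0-fold higher.

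The mitotic difference itself was compared between lines. For S38A minus WT, 0 of 33 genes passed the threshold, where 0.993% of all genes did, 0.496% in each direction, and for S38D minus WT 0 passed, where 0.401% of all genes did, 0.143% higher and 0.258% lower. DESeq2 also called 0 in both. At unadjusted p under 0.05, Scarna9 (1.32, SE 0.41) and Snord13 (0.75, SE 0.33) had a larger mitotic difference in S38A than in WT. Snora57 (-1.43, SE 0.52) and Snord104 (-0.50, SE 0.23) had a smaller one. For S38D minus WT, Snora47 (2.99, SE 0.97) and Gm24507 (3.15, SE 1.35) had a larger one. Scarna9 had 14.5 and 13.1 CPM in mitotic and 0.788 and 0.690 CPM in asynchronous S38A cells, and 47.2 and 41.7 CPM in mitotic and 6.26 and 5.95 CPM in asynchronous WT cells, so that the S38A group was lower in both states and the ratio between states was wider. Differences near the size of these standard errors were not detectable at this depth. With spike-in scaling, where the median of all genes moved by 0.46, 2 genes passed for S38A minus WT, and without S38D asynchronous 1 and WT mitotic 1 together 1 gene passed, all 3 calls higher.

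**Figure D3:**
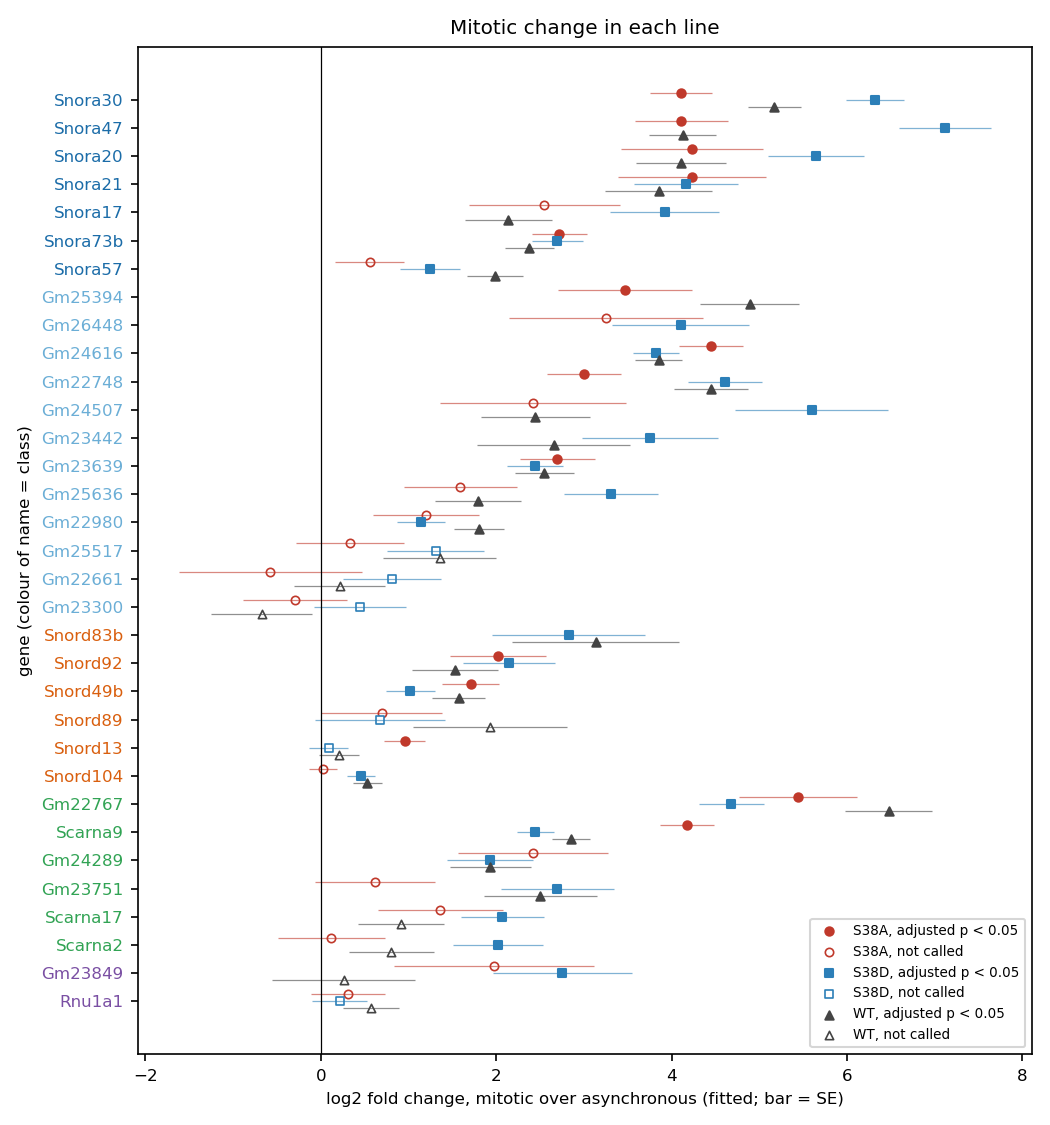
Fitted log2 fold change of mitotic over asynchronous cells in S38A (circles), S38D (squares) and WT (triangles), with bars for the SE and filled symbols for an adjusted p under 0.05. Points are left out where a group had no read, and no symbol of Gm23300, Gm22661 or Rnu1a1 is filled.

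Against WT, mitotic S38A cells had lower levels of all 7 H/ACA genes and 5 of 6 Cajal body genes and of 0 of the 6 C/D genes. In asynchronous S38A cells 2 of the 7, 3 of the 6 and 1 of the 6 were lower. In mitotic cells 23 of 33 genes were lower in S38A and 0 higher, where 8.72% of all genes were lower and 8.31% higher. At unadjusted p under 0.05, 26 were lower and 0 higher, and DESeq2 called 14 lower and 0 higher. The median log2 fold change was -1.64, against 0.03 for all genes. By class, 7 of 7 H/ACA, 5 of 6 Cajal body, 10 of 12 clone-symbol, 1 of 2 spliceosomal and 0 of 6 C/D genes fell. The C/D class holds only genes with a Snord symbol. Gm22980, Scarna9 and Scarna17 have both C/D boxes but are counted in other classes, and all of them fell. At unadjusted p under 0.05 the C/D values included Snord49b at -0.72 (SE 0.27, adjusted p = 0.08) and Snord104 at -0.38 (SE 0.16, adjusted p = 0.121), and the class is not shown to differ from the others, since no test of that difference was made. Both S38A libraries were below both WT libraries for 29 genes, an arrangement that 28.5% of all genes had, and 30.2% the opposite one. WT libraries helped to choose the genes: 28 met the rule in WT libraries alone and 16 in S38A libraries alone. The counts of S38A against WT, also those by class, are therefore a description. Of the 16 genes that met the rule in S38A libraries alone, 11 fell, with a median of -1.62. The count of 23 was 15 without WT mitotic 1 and 13 without S38A mitotic 2.

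In asynchronous cells 11 genes were lower in S38A and 0 higher, where 9.54% of all genes were lower and 11.7% higher. At unadjusted p under 0.05, 13 were lower and 0 higher, and DESeq2 called 6 lower and 0 higher. The median was -1.48 over 30 genes with a value, against -0.02 for all genes. Both S38A libraries were below both WT libraries for 23 genes, where 34.8% of all genes were so arranged and 33.9% the opposite way. Of the 8 B cell markers, 4 were higher in S38A in mitotic and 6 in asynchronous cells and 0 lower, and their part in these results was not tested. These counts too are a description, since WT libraries helped to choose the genes. Of the 16 genes that met the rule in S38A alone, 6 fell. The 11 were Snora73b, Snora17, Scarna9, Gm24289, Scarna17, Gm24616, Gm23639, Gm22980, Gm22661, Rnu1a1 and Snord13, and all but Snord13 were lower in mitotic S38A cells too. Of these, Snora17, Gm24289, Scarna17, Gm22980 and Gm22661 did not meet the rule in S38A libraries alone. The count was 6 without WT asynchronous 1, 4 without WT asynchronous 2, and 5 without either S38A asynchronous library. With spike-in scaling the median of all genes moved by -0.45, and 14 members were lower.

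Gm22980, a C/D-type RNA by its boxes, had the lowest S38A values relative to WT among genes with reads in both groups. It met the rule in WT and in S38D libraries but not in S38A libraries alone, so its difference is a description. It had 1.45 and 0.886 CPM in mitotic S38A cells, 13.2 and 13.4 CPM in mitotic S38D cells and 19.6 and 14.9 CPM in mitotic WT cells. In asynchronous cells it had 0.630 and 0.345 CPM in S38A, 7.16 and 4.77 CPM in S38D and 5.28 and 4.53 CPM in WT. The S38A libraries were below all others of their state, with log2 fold changes over WT of -3.87 in mitotic cells (SE 0.35, adjusted p = 2.37e-06) and -3.27 in asynchronous cells (SE 0.47, adjusted p = 0.000179). Scarna9 was lower by 1.69 in mitotic cells (SE 0.19, adjusted p = 2.23e-05), and in asynchronous cells it fell by 3.01 (SE 0.35, adjusted p = 2.33e-05). Snora30 had 10.1 and 10.5 CPM in mitotic S38A cells, against 39.5 and 37.7 CPM in mitotic WT cells, and fell by 1.91 (SE 0.21, adjusted p = 1.66e-05). In asynchronous cells Snora30 had 0.788 and 0.345 CPM in S38A and 0.782 and 1.42 CPM in WT, where its difference of -0.84 (SE 0.56) missed the threshold. Snora73b had 48.5 and 42.5 CPM in mitotic S38A cells, against 164 and 112 CPM in mitotic WT cells, and fell by 1.60 (SE 0.27, adjusted p = 0.0029). In asynchronous cells it had 8.19 and 5.52 CPM in S38A, against 30.7 and 21.8 CPM in WT, and fell by 1.94 (SE 0.32). Rnu1a1, the U1 gene whose mitotic difference missed the threshold, had 2.53 and 1.77 CPM in mitotic S38A cells, against 7.37 and 8.78 CPM in mitotic WT cells, and fell by 1.89 (SE 0.35).

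The C/D genes with the most reads were Snord13 and Snord104. Snord104 had 28.0 and 24.5 CPM in mitotic S38A cells, against 34.9 and 33.4 CPM in mitotic WT cells. In asynchronous cells it had 23.9 and 27.6 CPM in S38A, against 24.2 and 23.0 CPM in WT, with differences of -0.38 and 0.12 that missed the threshold. Snord13 had 49.2 and 52.8 CPM in mitotic S38A cells and 65.9 and 36.9 CPM in mitotic WT cells, with overlap. In asynchronous cells it had 26.9 and 25.5 CPM in S38A, against 46.5 and 42.5 CPM in WT, and fell by 0.76 (SE 0.24, adjusted p = 0.0361). Summed by class, mitotic S38A cells had 0.304 of the WT level for H/ACA genes, 0.275 for Cajal body genes, 0.281 for clone-symbol genes, 0.313 for spliceosomal genes and 0.849 for C/D genes. The asynchronous ratios were 0.300, 0.253, 0.328, 0.295 and 0.757.

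**Figure D4:**
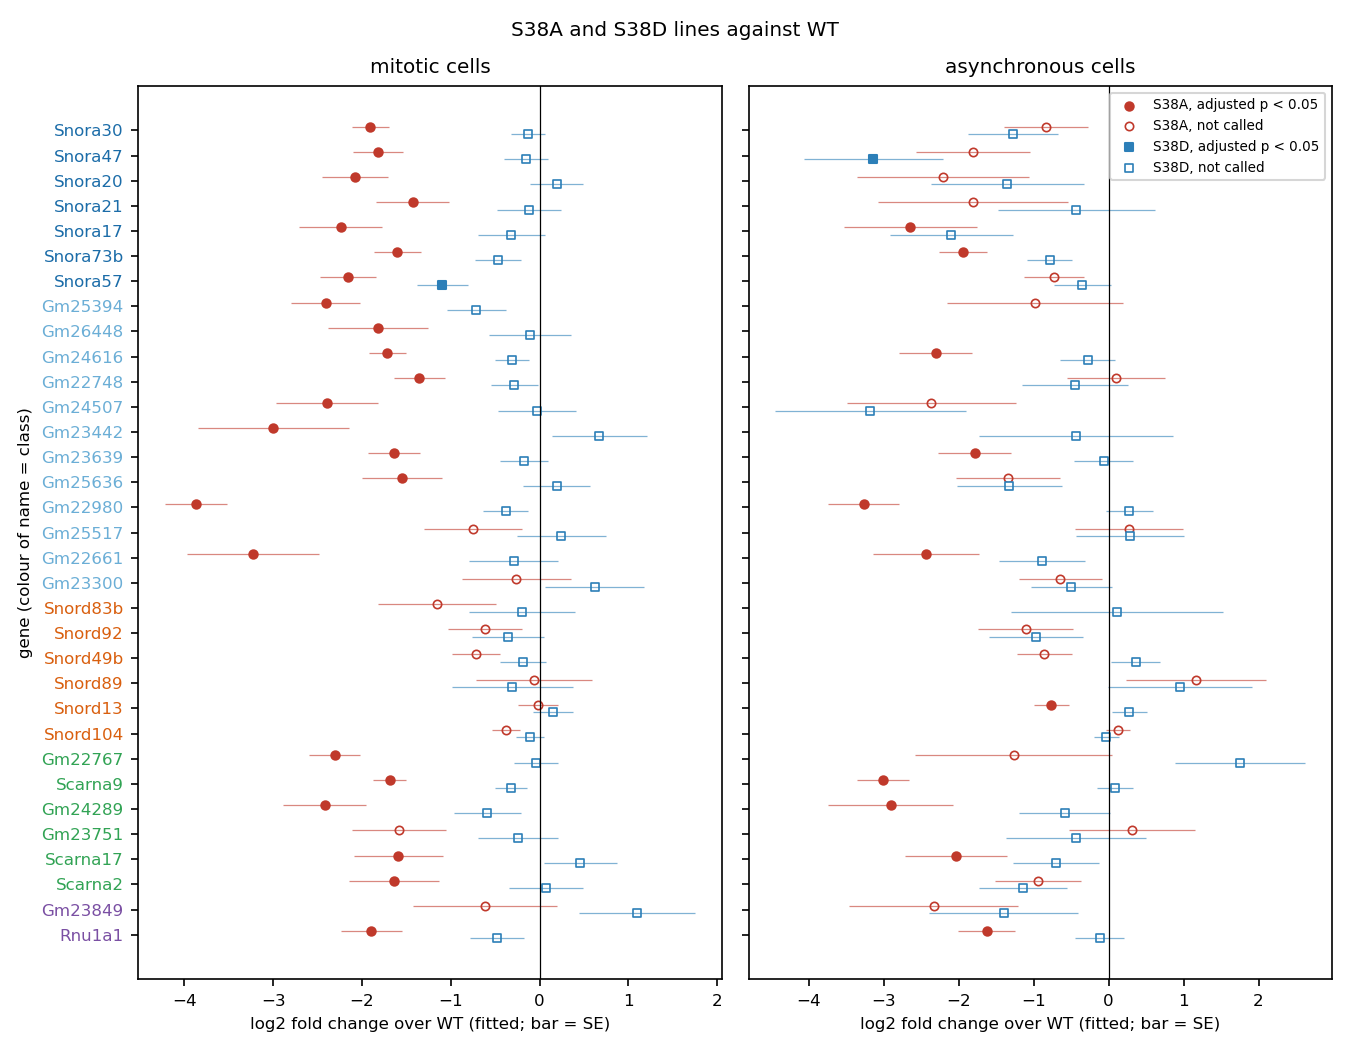
Fitted log2 fold change over WT of S38A (circles) and S38D (squares) in mitotic (left) and asynchronous cells (right), with bars for the SE and filled symbols for an adjusted p under 0.05, leaving out points where a group had no read. In mitotic cells the S38A values of all 33 genes lie below 0 and the S38D values lie on both sides of it.

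S38D was set against WT in the same way. In mitotic cells 1 gene was lower in S38D and 0 higher, where 4.56% of all genes were called, 3.41% lower and 1.15% higher, and the median was -0.18. In asynchronous cells 1 gene was lower and 0 higher, where 8.99% were called, 4.12% lower and 4.87% higher, and the median was -0.43 over 31 genes with a value. At unadjusted p under 0.05, 2 and 5 genes were lower in mitotic and asynchronous cells and 0 higher, and DESeq2 called 0 in both. Both S38D libraries were below both WT libraries for 9 genes in mitotic cells, where 26.5% of all genes were so arranged and 25.4% the opposite way, and for 12 in asynchronous cells, where 25.2% were so arranged and 26.2% the opposite way. The mitotic gene was Snora57, with 6.39 and 6.34 CPM in S38D against 15.5 and 11.6 CPM in WT, a log2 fold change of -1.09 (SE 0.29, adjusted p = 0.0395). That call was lost without WT mitotic 1 (adjusted p = 0.305), without either S38D mitotic library (0.223 and 0.232) and without 5 others. Without S38D asynchronous 1 and WT mitotic 1 together Snora57 was not called (adjusted p = 0.111), and in its place 1 gene was called higher in S38D and 0 lower. The asynchronous gene was Snora47, with 0.159 and 0 CPM in S38D against 1.17 and 0.567 CPM in WT, or 1 read against 8 (adjusted p = 0.0454), and its call was lost whichever of the 12 libraries was left out. Summed by class, mitotic S38D cells had 0.777 of the WT level for H/ACA genes, 0.885 for Cajal body genes, 0.856 for clone-symbol genes, 0.890 for spliceosomal genes and 1.00 for C/D genes. The asynchronous ratios were 0.572, 0.844, 0.808, 0.831 and 1.13. In asynchronous cells all 7 H/ACA genes had fitted values below 0, with a median of -1.27 and a highest value of -0.35. Most of these values rest on few reads. Reads in S38D against WT were 5 against 9 for Snora30, 1 against 8 for Snora47 and 2 against 4 for Snora20. They were 3 against 3 for Snora21 and 3 against 10 for Snora17. Snora73b had 185 against 234 and Snora57 had 32 against 30. A p above the threshold does not show that S38D and WT were alike.

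S38D was also set against S38A, a comparison added after the data were seen. In mitotic cells 23 genes were higher in S38D and 0 lower, where 17.7% of all genes were called, 7.51% higher and 10.2% lower, with a median of 1.46 against -0.02 for all genes. In asynchronous cells 7 were higher and 0 lower, where 7.22% were called, 3.32% higher and 3.89% lower. At unadjusted p under 0.05, 25 and 10 were higher and 0 lower, and DESeq2 called 9 and 4 higher and 0 lower. These comparisons share libraries with those against WT and are not independent of them. S38D libraries helped to choose the genes: 31 met the rule in S38D libraries alone and 16 in S38A libraries alone. The counts of S38D against S38A are therefore a description. The 4 genes with the smallest adjusted p in mitotic cells were Gm22980 (3.49, SE 0.36), Snora30 (1.78, SE 0.21), Gm22767 (2.26, SE 0.29) and Scarna9 (1.37, SE 0.19). The mitotic count was 11 and 9 without S38A mitotic 1 and 2, and 15 and 9 without S38D mitotic 1 and 2. The asynchronous count was 2 without either S38A asynchronous library, 3 without S38D asynchronous 1, and 4 without S38D asynchronous 1 and WT mitotic 1 together.

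GENCODE placed 27 of the 33 genes inside a longer gene on the same strand, 26 in an intron and Gm24616 across an exon, in 26 distinct hosts. The ratio of member to host reads does not depend on how libraries are scaled. Where a member had few or no reads in a library, it still moves with depth, through the 0.5 read added below. For 26 genes with a host that had enough reads, log2 of member over host reads, with 0.5 read added to each, was compared between the 6 mitotic and 6 asynchronous libraries by a two-sided exact permutation test. It was higher in mitotic libraries for 21 of 26 genes and lower for 0 (adjusted p under 0.05 over the 26), and in 12 genes the libraries did not overlap, which gives 0.0022, the smallest p these splits allow. The splits exchanged libraries of different lines. Of the 26 genes, 16 had 10 or more reads in no asynchronous library, which favours a rise. Their 15 passing ratios are a description. So is the passing ratio of Gm22748, which had 10 or more reads in 1 asynchronous library. Of the 9 with 10 or more reads in at least 2 asynchronous libraries 5 passed. Of the 25 hosts in the fit, 6 rose and 4 fell in mitotic cells, with log2 fold changes from -0.84 to 0.80 and a median of 0.10. Of all tested genes, 20.5% rose and 21.6% fell.

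The 4 largest differences of the ratio were those of Snora30, Snora47, Gm22767 and Gm25394, none of which had 10 reads in an asynchronous library, and they too are a description. Gm42715, the host of Snora30, had 32.1 ± 6.16 CPM in mitotic libraries, against 35.2 ± 4.80 CPM in asynchronous libraries (SD, n = 6 each), and its log2 difference was -0.14 (SE 0.12, adjusted p = 0.337). The log2 ratio of Snora30 to it was 5.24 higher in mitotic libraries. Ppp1r8, the host of Gm22767, had 81.7 ± 3.06 CPM in mitotic libraries, against 65.5 ± 5.91 CPM in asynchronous libraries and rose by 0.32 (SE 0.07), while the ratio was 5.05 higher in mitotic libraries. Iars, the host of Gm25394, had 134.6 ± 25.2 CPM in mitotic libraries, against 155.7 ± 42.4 CPM in asynchronous libraries, with a ratio 5.00 higher in mitotic libraries. Tcp1, a chaperonin subunit gene and the host of Snora20, differed by -0.04 (SE 0.07), and the ribosomal protein gene Rpl23, the host of Snora21, by -0.02 (SE 0.08). Rpl3, the host of Snord83b, fell by 0.63 (SE 0.10), while its member rose. Snord89, Gm22661, Gm23300 and Gm23849 were among the 5 genes whose ratio did not pass the test. Reads of unspliced host RNA over a member could be counted to the member, since how overlapping features were counted is not given in the sources used here.

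In mitotic S38A against mitotic WT cells, 2 of the 25 hosts were higher and 4 lower, with a median of 0.06, where 8.31% of all genes were higher and 8.72% lower. In asynchronous cells 2 were higher and 4 lower, with a median of -0.05, where 11.7% were higher and 9.54% lower. Epb41l4aos, the noncoding host of Gm23639, was among the lower ones in both states, at -0.95 (SE 0.11) in mitotic and -0.36 (SE 0.11) in asynchronous cells. Its member was lower by more, at -1.64 in mitotic and -1.79 in asynchronous cells, a difference that was not tested. RefSeq places Snora73b in Snhg3 and Snora17 in Snhg7, whereas GENCODE gives Rcc1 for Snora73b and no host for Snora17.

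**Figure D5:**
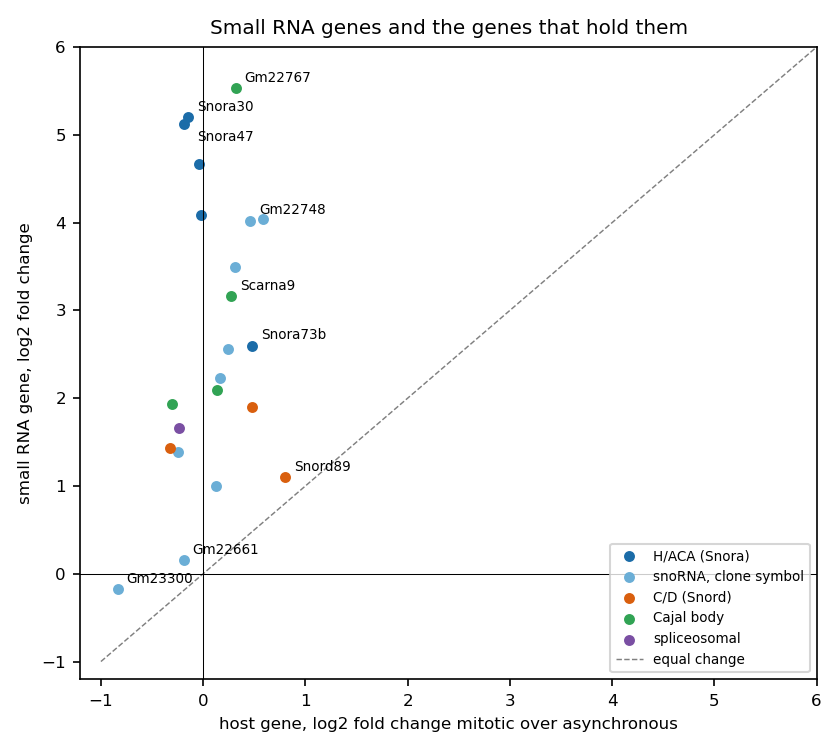
Log2 fold change of mitotic over asynchronous cells, mean of the 3 lines, for 22 small RNA genes with reads in every group (vertical axis) against the gene that holds them (horizontal axis), coloured by class, with a dashed line where both changes would be equal. The hosts lie between -0.84 and 0.80, and 18 of the 22 small RNA genes lie more than 1 log2 unit above the line. The 22 include genes that met the rule through mitotic libraries alone.

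Genes for proteins that work on these RNAs were read against the same background, 20.5% of all tested genes higher and 21.6% lower in mitotic cells. Of the 8 core proteins of H/ACA and C/D particles 5 rose in mitotic cells and 0 fell, with a median log2 fold change of 0.50. Nop10, of the H/ACA core, rose by 0.58 (SE 0.06), with 811 to 1300 CPM in mitotic libraries, against 628 to 793 CPM in asynchronous libraries. Nhp2, of the same core, rose by 0.54 (SE 0.07) and Nop56, of the C/D core, by 0.52 (SE 0.08). Fbl, the methyltransferase of C/D particles, differed by 0.03 (SE 0.10, adjusted p = 0.836). Of 13 assembly factor genes 6 rose and 0 fell. They include Naf1, which loads the H/ACA core, at 0.43 (SE 0.06), Nufip1, of C/D assembly, at 0.67 (SE 0.10), and Nolc1, a nucleolar and Cajal body protein, at 0.45 (SE 0.07). In mitotic S38A against mitotic WT cells, 2 of the 8 core genes were higher and 3 lower, where 8.31% and 8.72% of all genes were. Fbl was higher by 0.94 (SE 0.18), and Nop10 was lower, at -0.37 (SE 0.10). In asynchronous cells 1 was higher and 0 lower, where 11.7% and 9.54% of all genes were.

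Of 23 measured genes for 3′ tailing, trimming and decay, 9 rose in mitotic cells and 3 fell, against the same 20.5% and 21.6%, with a median of 0.11. Tent4a and Tent4b, which add A tails, rose by 0.60 (SE 0.12) and 0.34 (SE 0.13). Parn, which trims A tails, fell by 0.50 (SE 0.09), and Zcchc7, of the tailing complex, fell by 0.90 (SE 0.08). Usb1, which trims the U6 RNA, rose by 0.56 (SE 0.08). Of the exosome genes, Exosc1 (0.41, SE 0.09), Exosc4, Exosc5, Exosc7, Exosc8 and Dis3 rose, and only Exosc9 (-0.32, SE 0.07) fell. Of 35 measured genes for snRNA transcription, 3′ processing and assembly, 10 rose and 1 fell, again against 20.5% and 21.6% of all genes, with a median of 0.15. Gemin5, which binds snRNAs for assembly, rose by 1.00 (SE 0.09), Smn1 by 0.57 (SE 0.06) and Snapc4, a subunit of the snRNA promoter factor, by 0.77 (SE 0.12).

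Of 10 other small noncoding RNAs 2 could be tested, and both rose in mitotic cells, where 20.5% of all tested genes rose and 21.6% fell. Rpph1, the RNA of RNase P, had 6.87 to 25.3 CPM in mitotic libraries, against 1.58 to 7.82 CPM in asynchronous libraries and rose by 1.72 (SE 0.18, adjusted p = 1.52e-06). It was lower in S38A than in WT, at -1.46 in mitotic (SE 0.27, adjusted p = 0.00162) and -1.82 in asynchronous cells (SE 0.36, adjusted p = 0.00224). Rny1, a Y RNA, rose by 1.48 (SE 0.37), and its differences between S38A and WT, -0.35 in mitotic and -1.57 in asynchronous cells, missed the threshold (adjusted p = 0.731 and 0.179). The other 8 had too few reads to test, Rn7s1 and Rn7s2 none at all, and Rny3 had 35 mitotic against 39 asynchronous reads. Among 5 measured nuclear long noncoding RNAs, a list added after the data were seen, 3 rose and 0 fell in mitotic cells. Malat1 rose by 1.34 (SE 0.14), with 37.2 to 108 CPM in mitotic libraries, against 14.3 to 47.3 CPM in asynchronous libraries, Kcnq1ot1 rose by 1.32 (SE 0.22) and Pvt1 by 1.16 (SE 0.15). Neat1 differed by 0.01 (SE 0.07, adjusted p = 0.91) and Tug1 by 0.49 (SE 0.20, adjusted p = 0.0572). In S38A against WT, 2 of the 5 were lower and 0 higher in each state. Of all genes, 8.72% were lower and 8.31% higher in mitotic cells, and 9.54% and 11.7% in asynchronous cells. Malat1 was at -0.95 in mitotic and -1.46 in asynchronous cells, and Neat1 at -1.14 in mitotic and -0.82 in asynchronous cells. In S38D against WT, Neat1 was lower in mitotic (-0.74, adjusted p = 0.00116) and asynchronous cells (-0.69, adjusted p = 0.00192) and Malat1 in asynchronous cells (-0.92, adjusted p = 0.0336), with no other call among the 5. There, 3.41% of all genes were lower and 1.15% higher in mitotic cells, and 4.12% and 4.87% in asynchronous cells. The part of these RNAs in the results was not tested.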

How the data were processed

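The deposited files hold whole-number read counts per gene for 12 libraries, made with oligo(dT)-primed 3′ end sequencing (QuantSeq 3′ FWD, 51-base reads) from total RNA with ERCC spike-ins, per the labels' protocols. The submitters' processing notes list STAR 2.5.3a, mm10, cutadapt 1.12 and bcl2fastq 2.16.0.10. Not given in the sources used here are the counting tool, its strand setting and its treatment of reads with several matches, which bear on nested, overlapping and multi-copy genes. Of 51826 gene IDs, 99.63% matched GENCODE M21, which gave gene types, positions and hosts.

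Counts were fitted with edgeR 4.0.16 (TMM scaling, filterByExpr with a minimum count of 10, robust quasi-likelihood test) in R 4.3.3, with 6 group means and 6 residual degrees of freedom. P-values were adjusted over the 10477 genes tested (Benjamini-Hochberg), and calls used an adjusted p under 0.05. Spike-ins stayed out of the fit. Member to host ratios were compared with an exact permutation test. The fit was tested on simulated counts. Alternatives were DESeq2 1.42.0, DESeq2 size factors, spike-in scaling, other count filters, only the groups compared, a replicate block, and fits without single libraries or without the 2 that stood apart. Described by name are the genes with the most reads in each class and those with the largest differences; others were named after their values were seen. The members and gene lists were chosen with earlier results of these data known. Sequences are those of GENCODE M21 transcripts. Some items are not reported here.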

Additional observations from a re-analysis of the deposited data

How the results depend on the processing

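No called fold change of a member changed sign: of 3157 values over the 161 called combinations of gene and comparison, 2816 kept their side of the threshold, 341 lost it and 0 reversed. Uncalled values and other named genes were not recomputed. With DESeq2 the calls were 14 for mitotic WT, 14 for mitotic S38D, 6 and 14 for S38A against WT in asynchronous and mitotic cells, 0 and 0 for S38D against WT, and 4 and 9 for S38D against S38A. For S38D against WT in asynchronous cells the count was 2 with spike-in scaling, 2 without a count filter, 2 with the replicate block and 0 with only the groups compared. With only the groups compared, S38D against S38A in asynchronous cells had 2. For the mitotic change of S38A minus WT the count was 2 with spike-in scaling and 1 without S38D asynchronous 1 and WT mitotic 1 together, which left 4 for S38D against S38A in asynchronous cells. The causes were not tested.

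Leaving out each library in turn gave 25 to 30 mitotic calls over the mean of 3 lines, 11 to 18 in S38A, 19 to 26 in S38D and 16 to 25 in WT. S38A against WT gave 4 to 11 in asynchronous and 13 to 25 in mitotic cells, and S38D against WT 0 to 1 in each. S38D against S38A gave 2 to 10 in asynchronous and 9 to 24 in mitotic cells. The mitotic change gave 0 to 0 for S38A minus WT and 0 to 1 for S38D minus WT, and the host ratio 17 to 21. With splits within each line, an alternative chosen after seeing the data whose smallest p is 0.00926, 23 ratios passed. Replicate numbers did not pair libraries across all groups: over 7175 genes and 15 pairs of groups, deviations correlated above 0.1 in 3, below -0.1 in 3 and between these in 9. The 3 above were strong, at 0.54 to 0.78, among asynchronous S38D, mitotic WT and mitotic S38A. The 3 below, at -0.40 to -0.36, were between asynchronous S38A and each of those groups. The replicate block moved no other count by over 1.5 times. With 2 libraries a group and as few as 44 mitotic reads of a gene, small differences were not detectable at this depth.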
